A study of Mus musculus with 9 samples.

Results

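Macrophages sense bacterial lipopolysaccharide (LPS) through TLR4, and 10 genes that act beside or directly below this receptor are described here: the co-receptors Cd14 and Ly96, the adaptors Tirap, Myd88, Ticam2 and Ticam1, and the kinases Irak4, Irak1, Irak2 and Irak3. They were taken by gene symbol from the table of read counts, where each symbol named 1 Ensembl gene, and all 10 were among the 14458 genes with enough counts to be tested, of 51826 counted. The cells were RAW 264.7, an established mouse macrophage line transformed with a leukemia virus, so they stand for a cultured line rather than for primary macrophages. The calycosin plus LPS group was given the plant isoflavone calycosin at 100 µg/mL for 24 h and then LPS at 300 ng/mL for 6 h. The LPS group received that dose of LPS for 6 h, and the vehicle group received solvent. There were 3 libraries per group, labelled biological replicates, and no group given calycosin without LPS was analysed here.

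CD14 picks up LPS and hands it to MD-2, the product of Ly96, which sits on TLR4 and carries the lipid. The receptor then signals along a pair of branches. At the plasma membrane TIRAP brings in MyD88, on which IRAK4 and then IRAK1 and IRAK2 assemble and lead to NF-kappaB and MAP kinases. From endosomes TICAM2 (TRAM) brings in TICAM1 (TRIF), which leads to type I interferon, and IRAK3 (IRAK-M), found mainly in monocytes and macrophages, restrains signalling by the other IRAKs.

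With LPS, 7 of the 10 genes, from both branches, were higher than in vehicle cells, beside 27.3% of all genes tested. The inducible kinase gene Irak2 and the restraining kinase gene Irak3 rose 6.57-fold and 6.17-fold, Myd88 rose 4.68-fold, Ly96 4.003-fold, Ticam1 3.601-fold, Cd14 2.43-fold and Tirap 2.23-fold. Irak1 and Irak4 were called lower, by 1.33-fold and 1.296-fold, beside 28.9% of all genes tested, and neither call held without LPS replicate 3 or with only the groups compared. After calycosin pretreatment Cd14 was 2.47-fold, Myd88 2.11-fold and Tirap 1.38-fold lower than with LPS alone, and Ticam2 was 1.76-fold higher. The other 6 genes were not called, beside 12.9% lower and 16.1% higher among all genes tested. The Tirap call did not hold when any single library compared was left out.

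The sequence just before the transcription start is shown for 3 of the genes: Irak2, a kinase gene that rose with LPS, Myd88, an adaptor called in all 3 comparisons, and Irak1, whose window held a kappaB match. The sequences are from RefSeq (GRCm38.p6), which gave such a window for 7 of the 10 genes. Each is the 250 bases before the start, read 5′ to 3′ on the strand of the gene, with motif matches in capitals. The start used for Myd88 lies inside the span of the gene in the GENCODE annotation. The windows lie at chr6:113638217-113638466 (plus strand), chr9:119340019-119340268 (minus strand) and chrX:74023922-74024171 (minus strand).
Irak2: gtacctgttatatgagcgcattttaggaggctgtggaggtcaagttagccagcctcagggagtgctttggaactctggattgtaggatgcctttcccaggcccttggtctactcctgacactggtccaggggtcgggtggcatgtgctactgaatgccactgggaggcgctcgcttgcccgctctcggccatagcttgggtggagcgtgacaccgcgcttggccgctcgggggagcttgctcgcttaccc
Myd88: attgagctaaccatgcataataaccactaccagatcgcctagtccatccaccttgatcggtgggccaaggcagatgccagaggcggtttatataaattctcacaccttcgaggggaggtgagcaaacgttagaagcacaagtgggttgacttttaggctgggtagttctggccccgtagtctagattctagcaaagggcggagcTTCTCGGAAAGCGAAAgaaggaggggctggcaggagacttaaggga
Irak1: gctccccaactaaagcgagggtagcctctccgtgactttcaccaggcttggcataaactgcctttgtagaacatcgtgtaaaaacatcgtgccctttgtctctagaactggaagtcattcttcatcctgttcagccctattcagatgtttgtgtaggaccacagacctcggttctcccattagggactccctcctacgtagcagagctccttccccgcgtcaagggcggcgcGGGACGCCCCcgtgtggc

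Windows were searched on both strands for the kappaB consensus, the interferon-stimulated response element, the AP-1 site TGANTCA, the gamma-activated site TTCNNNGAA and the cyclic AMP response element TGACGTCA. In the Myd88 window the capitals hold a gamma-activated site from -46 to -38 and an interferon-stimulated response element from -40 to -31, counted from the start, which overlap. Those motifs are found in 7.02% and 2.98% of all 32851 windows of this length. The capitals in the Irak1 window are a kappaB match from -18 to -9, a motif found in 7.25% of windows. Of the 7 genes with windows, only Myd88 and Irak1 had a match to any of these 5 motifs, so none occurs in the Irak2 window shown. AP-1 and the cyclic AMP element occur in none of the windows of the 7 genes. A match describes letters only.

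Levels below are counts relative to library size (CPM), with library sizes adjusted by edgeR's TMM factors, which set the bulk of genes level between libraries, so a change is relative to the bulk of genes. Library totals ran from 27784737 to 38524105 counts. Vehicle replicate 3 had 21.9% mitochondrially encoded counts, against 3.79% and 3.68% in the other vehicle libraries, and calycosin plus LPS replicate 2 had 7.45%, against 17.2% and 19.4% in the others of its group. The LPS libraries had 13.0% to 14.7%, so this share moved with the LPS comparison as well, and its part in the results was not tested beyond the alternatives quoted. Vehicle replicate 3 also stood apart in chi-square per gene between the counts of 2 libraries, mitochondrially encoded genes included. It was at 620 and 625 from the other vehicle libraries, which were 13.8 apart. From calycosin plus LPS replicates 1 and 3 it was at 417 and 403. Calycosin plus LPS replicate 2 was at 228 and 303 from those replicates, which were 26.6 apart, and at 232 from LPS replicate 3. The 7 macrophage markers had a summed level of 2793 to 3506 CPM, 3395 to 3525 CPM and 4044 to 4565 CPM in calycosin plus LPS, LPS and vehicle cells, of which Cd68 and Lyz2 made up most. Adgre1 was low, at 4.41 to 13.7 CPM over all libraries, and Mertk was at no more than 0.125 CPM. The markers did not move together, since Lyz2 was at 754 to 852 CPM, 1136 to 1254 CPM and 2188 to 2852 CPM in the same order of groups, Csf1r at 122 to 155 CPM, 124 to 130 CPM and 369 to 536 CPM, and Fcgr1 at 173 to 233 CPM, 263 to 311 CPM and 35.1 to 59.8 CPM. In bulk RNA, fewer cells of a type and less RNA per cell cannot be told apart. Of 23 markers of 7 other cell types, 9 had 0 counts in all 9 libraries, and their summed level was 2.07 to 3.04 CPM, 6.27 to 9.97 CPM and 1.57 to 1.73 CPM in the same order of groups. The endothelial gene Cdh5 alone had 3.78 to 5.45 CPM in LPS cells, and the part of these markers in the results was not tested.

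Cd14 (ENSMUSG00000051439, chromosome 18: 36725067 to 36726798, minus strand, GRCm38) is a compact gene whose annotated exons merge into 1 stretch. It stood at 473, 587 and 457 CPM in calycosin plus LPS replicates 1, 2 and 3, at 1305, 1196 and 1244 CPM with LPS, and at 551, 555 and 435 CPM with vehicle. All LPS libraries were far above both other groups, which overlapped each other. The log2 fold change was 1.28 (SE 0.15) for LPS over vehicle, with adjusted p = 6.26e-05 in edgeR's quasi-likelihood test with Benjamini-Hochberg adjustment, which is the test of every adjusted p below unless another is named. For calycosin plus LPS over LPS it was -1.304 (SE 0.15, adjusted p = 3.82e-04). Against vehicle the pretreated cells differed by -0.02 on the log2 scale (95% interval -0.35 to 0.31, adjusted p = 0.911). Without both libraries of unusual mitochondrial share this last difference was -0.28 (adjusted p = 0.0112), the only 1 of 23 alternative fits in which it passed. Its sign turned in 7 of them, and it was 0.09 with mitochondrial share as a covariate (adjusted p = 0.277).

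Ly96 (ENSMUSG00000025779, chromosome 1: 16688051 to 16709611, plus strand) encodes MD-2 and has 6 merged exons. Its levels were 9.71, 5.49 and 11.2 CPM in calycosin plus LPS cells, 19.1, 18.7 and 23.3 CPM in LPS cells, and 3.25, 2.20 and 10.0 CPM in vehicle cells. Vehicle replicate 3 was as high as the pretreated libraries, while the LPS libraries were above all others. The log2 fold change for LPS over vehicle was 2.00 (SE 0.50, adjusted p = 0.00708), and it was 2.84 without vehicle replicate 3 (adjusted p = 4.85e-05). It was 1.00 among the 6 libraries with over 10% mitochondrial counts, where vehicle replicate 3 is the only vehicle library. For calycosin plus LPS over LPS the value was -1.22 (95% interval -2.31 to -0.12), which missed the threshold at adjusted p = 0.0889, although no library of either group overlapped the other. It passed without vehicle replicate 2 or vehicle replicate 3 (adjusted p = 0.0483 and 0.0056), which are not among the libraries compared. Of 23 alternative fits, this fall passed in 10 and missed the threshold in 13. Those that passed include the fit of only the groups compared (-1.21, adjusted p = 0.00606) and DESeq2's Wald test (-1.24, adjusted p = 0.0331). It did not pass when any 1 of the libraries compared was left out. Calycosin plus LPS over vehicle was 0.78 (adjusted p = 0.212), and it was 1.65 without vehicle replicate 3 (adjusted p = 0.0015) and 0.40 without vehicle replicate 2 (adjusted p = 0.496). Among the 6 libraries with over 10% mitochondrial counts, with vehicle replicate 3 as the only vehicle library, it was 0.06.

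**Figure D1:**
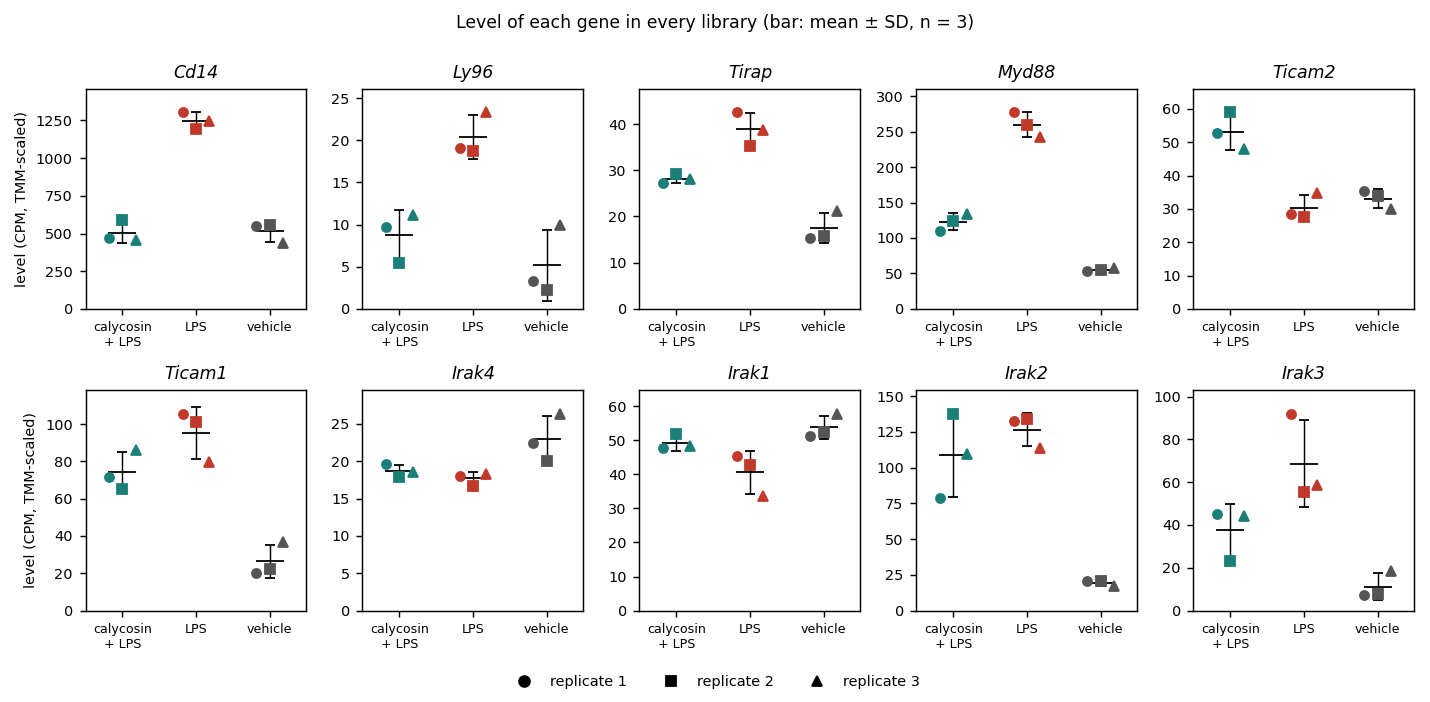
Level of each of the 10 genes in CPM (TMM-scaled, linear axes from 0) in calycosin plus LPS, LPS and vehicle cells, with a symbol per replicate and a bar for mean ± SD (n = 3). Cd14, Ly96, Tirap, Myd88 and Irak3 peak in LPS cells, and Ticam2 is highest in calycosin plus LPS cells at 48.0 to 59.0 CPM. Ticam1 and Irak2 are high in both groups that received LPS.

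Among the adaptors of the MyD88 branch, Tirap (ENSMUSG00000032041, chromosome 9: 35184551 to 35200291, minus strand) encodes the bridge between the receptor and MyD88. Its levels were 27.2, 29.1 and 28.2 CPM in calycosin plus LPS cells, 42.6, 35.3 and 38.7 CPM in LPS cells, and 15.4, 15.7 and 21.2 CPM in vehicle cells. In CPM the groups formed 3 steps without overlap, the pretreated cells between the others. In the deposited values relative to transcript length and depth (TPM), the pretreated libraries, at 15.5 to 23.7, overlapped both other groups. LPS libraries were at 19.0 to 22.4 TPM and vehicle libraries at 13.5 to 16.6 TPM. LPS over vehicle was 1.16 on the log2 scale (SE 0.15, adjusted p = 1.15e-04) and calycosin plus LPS over vehicle 0.69 (SE 0.15, adjusted p = 0.00359). The latter was 0.39 among the 6 libraries with over 10% mitochondrial counts, where vehicle replicate 3 is the only vehicle library. Calycosin plus LPS over LPS was -0.46 (SE 0.15, adjusted p = 0.0392). This last call was lost when any 1 of the 6 libraries compared was left out, with adjusted p = 0.12, 0.08 and 0.104 without calycosin plus LPS replicates 1, 2 and 3 and 0.133, 0.059 and 0.0838 without LPS replicates 1, 2 and 3, and with the replicate number as a block (adjusted p = 0.0575).

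Myd88 (ENSMUSG00000032508, chromosome 9: 119335934 to 119341411, minus strand), the core adaptor of this branch, had the smallest standard errors of the 10. It had 110, 125 and 134 CPM in calycosin plus LPS cells, 277, 259 and 242 CPM in LPS cells, and 53.5, 55.0 and 57.7 CPM in vehicle cells. The pretreated cells again lay between the other groups with no overlap. The log2 fold change was 2.23 (SE 0.11, adjusted p = 2.3e-07) for LPS over vehicle, -1.08 (SE 0.11, adjusted p = 2.19e-04) for calycosin plus LPS over LPS and 1.15 (SE 0.11, adjusted p = 2.79e-05) for calycosin plus LPS over vehicle. None of these calls was lost when single libraries were left out.

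Ticam1 (ENSMUSG00000047123, chromosome 17: 56269319 to 56276786, minus strand) encodes TRIF, the effector of the interferon branch. It stood at 71.7, 65.4 and 86.3 CPM in calycosin plus LPS cells, at 105, 101 and 79.4 CPM in LPS cells and at 20.4, 22.6 and 36.6 CPM in vehicle cells. Both groups given LPS were above vehicle and overlapped each other. Ticam1 was higher than in vehicle by 1.85 with LPS (SE 0.23, adjusted p = 9.24e-05) and by 1.49 with calycosin plus LPS (SE 0.23, adjusted p = 5.25e-04) on the log2 scale. Between those groups the difference was -0.36 (95% interval -0.85 to 0.14, adjusted p = 0.258).

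Ticam2 (ENSMUSG00000056130, chromosome 18: 46557291 to 46574533, minus strand) encodes the sorting adaptor TRAM. Its levels were 52.6, 59.0 and 48.0 CPM in calycosin plus LPS cells, 28.4, 27.7 and 34.9 CPM in LPS cells, and 35.3, 33.9 and 30.1 CPM in vehicle cells. LPS and vehicle libraries overlapped, and the pretreated libraries were above both. Calycosin plus LPS was higher than LPS by 0.81 (SE 0.14, adjusted p = 0.00222) and higher than vehicle by 0.68 (SE 0.13, adjusted p = 0.00243), and LPS over vehicle was -0.13 (95% interval -0.43 to 0.17, adjusted p = 0.44). With an offset for GC content the rise over vehicle shrank to 0.20 (adjusted p = 0.359) and the LPS value became -0.63 (adjusted p = 0.0116). Annotated exons of Ticam2 share 838 bases with Tmed7 on the same strand, so reads there could have been counted for either gene and the values are uncertain to that extent. Tmed7, a cargo receptor of the secretory pathway, was higher with LPS than with vehicle by 0.55 on the log2 scale (adjusted p = 0.00507), and in calycosin plus LPS over LPS it had a log2 fold change of 0.23 (adjusted p = 0.217). In calycosin plus LPS over vehicle Tmed7 was higher by 0.77 (adjusted p = 9.32e-04), and its part in the Ticam2 rise there was not tested.

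**Figure D2:**
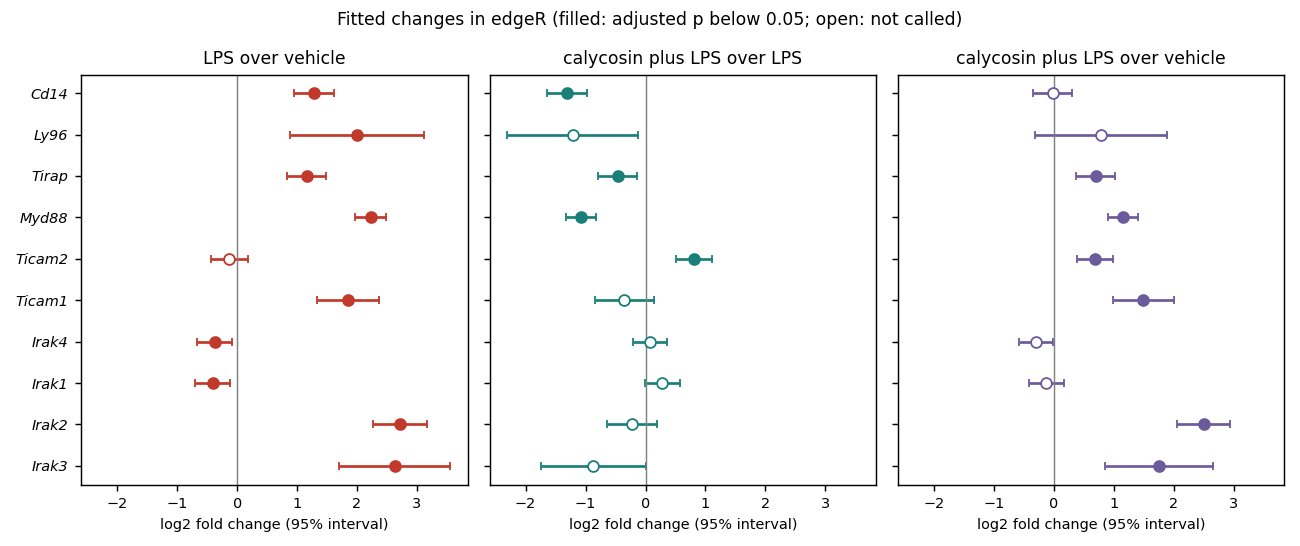
Log2 fold change with its 95% interval for the 10 genes in LPS over vehicle, calycosin plus LPS over LPS, and calycosin plus LPS over vehicle, from the edgeR fit of all 9 libraries; filled points passed an adjusted p of 0.05. Irak2 and Irak3 lie farthest right in LPS over vehicle (2.72 and 2.63), Cd14 and Ly96 farthest left in calycosin plus LPS over LPS (-1.304 and -1.22), and Ticam2 is the only filled point on the right there (0.81).

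Among the kinases, Irak4 (ENSMUSG00000059883, chromosome 15: 94543643 to 94581815, plus strand), the first kinase on MyD88, had 19.6, 17.8 and 18.5 CPM in calycosin plus LPS cells, 18.1, 16.7 and 18.3 CPM in LPS cells, and 22.4, 20.1 and 26.3 CPM in vehicle cells. Vehicle libraries were above both other groups, which overlapped. LPS over vehicle was -0.37 (SE 0.13, adjusted p = 0.0316), a call that was lost without LPS replicate 1, 2 or 3 (adjusted p = 0.0685, 0.108 and 0.0555), without calycosin plus LPS replicate 3 (0.0528) and with only the groups compared (0.0675). Calycosin plus LPS over vehicle was -0.30 (95% interval -0.59 to -0.01, adjusted p = 0.0782). It passed in 8 of 23 alternative fits, among them that without vehicle replicate 2 (adjusted p = 0.0411). Calycosin plus LPS over LPS was 0.08 (95% interval -0.21 to 0.36, adjusted p = 0.696).

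Irak1 (ENSMUSG00000031392, chromosome X: 74013914 to 74023918, minus strand), which IRAK4 activates, had 47.6, 51.9 and 48.2 CPM in calycosin plus LPS cells, 45.4, 42.9 and 33.5 CPM in LPS cells, and 51.2, 52.5 and 57.8 CPM in vehicle cells. LPS libraries were lowest, and the pretreated libraries overlapped with vehicle. LPS over vehicle was -0.41 (SE 0.13, adjusted p = 0.0232). The call was lost without LPS replicate 3 (-0.28, adjusted p = 0.066), with only the groups compared (adjusted p = 0.0524) and with an offset for GC content (-0.04, adjusted p = 0.828). Calycosin plus LPS over LPS was 0.28 (95% interval -0.01 to 0.57, adjusted p = 0.137) and calycosin plus LPS over vehicle was -0.13 (95% interval -0.42 to 0.16, adjusted p = 0.441), 0.08 with the GC offset.

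Irak2 (ENSMUSG00000060477, chromosome 6: 113638467 to 113695026, plus strand), the family member known for sustaining late signalling, had 79.05, 138 and 109 CPM in calycosin plus LPS cells, 132, 134 and 114 CPM in LPS cells, and 20.5, 20.4 and 16.9 CPM in vehicle cells. Every library that received LPS was well above vehicle, and the pretreated libraries ranged from below to above the LPS ones. The log2 fold change over vehicle was 2.72 with LPS (SE 0.20, adjusted p = 2.66e-06) and 2.496 with calycosin plus LPS (SE 0.20, adjusted p = 7.09e-06). Between these groups it was -0.22 (95% interval -0.64 to 0.20, adjusted p = 0.408). The highest pretreated value came from replicate 2, the library of low mitochondrial share, and among the libraries with over 10% mitochondrial counts the difference was -0.41 (adjusted p = 0.0834).

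Irak3 (ENSMUSG00000020227, chromosome 10: 120141648 to 120202130, minus strand), the restraining member, had 45.2, 23.1 and 44.2 CPM in calycosin plus LPS cells, 91.9, 55.4 and 58.7 CPM in LPS cells, and 7.33, 7.73 and 18.5 CPM in vehicle cells. The groups did not overlap, and each held 1 library well away from the other pair. LPS over vehicle was 2.63 (SE 0.41, adjusted p = 4.64e-04) and calycosin plus LPS over vehicle 1.75 (SE 0.40, adjusted p = 0.0056). Without vehicle replicate 3 these were 3.13 and 2.28 (adjusted p = 4.28e-05 and 3.39e-04). Among the libraries with over 10% mitochondrial counts, with vehicle replicate 3 as the only vehicle library, they were 1.87 and 1.27. Calycosin plus LPS over LPS was -0.87 (95% interval -1.75 to 0.00, adjusted p = 0.123), and it passed in 3 of 23 alternative fits. These were without vehicle replicate 3 (-0.85, adjusted p = 0.0334), with only the groups compared (-0.87, adjusted p = 0.0402) and with mitochondrial share as a covariate (-0.99, adjusted p = 0.0021).

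Counted together, 7 of the 10 genes were higher and 2 lower with LPS than with vehicle, and Ticam2 was not called. Over all genes tested, 27.3% were higher and 28.9% lower at the same threshold, and the median log2 fold change was 1.56 for the 10 genes and -0.07 for all. The 2 falls, Irak1 and Irak4, did not hold without LPS replicate 3, and 1 of them remained called without LPS replicate 1, LPS replicate 2 or calycosin plus LPS replicate 3. In calycosin plus LPS over LPS, Ticam2 was higher, Cd14, Myd88 and Tirap were lower, and 6 were not called, beside 16.1% higher and 12.9% lower among all genes. The Tirap call there did not hold when any single library compared was left out. The median was -0.41 for the 10 genes and 0.02 for all, and 5 were lower without vehicle replicate 3. In calycosin plus LPS over vehicle 6 were higher, beside 25.4% of all genes, and none was lower at an adjusted p below 0.05 in the main edgeR fit or DESeq2, beside 23.6% in edgeR. Without adjustment 1 of them, Irak4, was lower at a p below 0.05, and limma on log2(TPM + 1) called 1 lower. So did edgeR without vehicle replicate 2, without both libraries of unusual mitochondrial share, with mitochondrial share as a covariate, and with a GC offset. These comparisons share libraries, those of LPS, vehicle or calycosin plus LPS cells, so they are not independent of each other. The p-values set a difference between groups against the variation between these libraries only.

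The groups did not overlap in CPM for 9 genes in LPS over vehicle, 7 in calycosin plus LPS over LPS and 7 in calycosin plus LPS over vehicle. Among all genes tested the shares without overlap were 60.8%, 49.7% and 56.2%. The TMM factors were 0.786 to 0.813 for LPS libraries and 1.05 to 1.42 for vehicle libraries. With limma on the deposited TPM values (levels relative to transcript length and depth), as log2(TPM + 1), the fold changes of all tested genes moved by a median of -0.71 in LPS over vehicle, 0.30 in calycosin plus LPS over LPS and -0.42 in calycosin plus LPS over vehicle. The calls among the 10 genes were then 5 higher and 3 lower in LPS over vehicle, beside 10.4% and 49.9% of all genes in that fit, 2 higher and 0 lower in calycosin plus LPS over LPS, beside 10.4% and 2.22%, and 3 higher and 1 lower in calycosin plus LPS over vehicle, beside 10.3% and 26.3%. After the TPM values were divided by the TMM factors they were 7 and 2 (25.6% and 27.8% of all genes), 2 and 4 (13.0% and 10.1%), and 6 and 1 (23.3% and 20.7%). On unscaled TPM in LPS over vehicle, Cd14 and Tirap were no longer called (0.51 and 0.38, limma, adjusted p = 0.217 and 0.149), and Ticam2 was called lower (-0.87, limma, adjusted p = 0.0334). The calls of Cd14, Myd88 and Tirap in calycosin plus LPS over LPS were lost (-0.98, -0.76 and -0.16, limma, adjusted p = 0.0905, 0.0867 and 0.66), and Irak1 was called higher (0.80, limma, adjusted p = 0.0402). Against vehicle the pretreated cells lost the calls of Tirap, Myd88 and Ticam2 (0.22, 0.56 and 0.23, limma, adjusted p = 0.441, 0.119 and 0.577), and Irak4 was called lower (-0.75, limma, adjusted p = 0.0191). The Irak2 difference between calycosin plus LPS and LPS became 0.05 on unscaled TPM (adjusted p = 0.926 in limma).

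Since TPM allows for transcript length, it lets levels of different genes be set side by side. Cd14 was the most abundant in every group, with 550.2 ± 200.1 TPM in calycosin plus LPS cells, 1044 ± 53.9 TPM in LPS cells and 776 ± 296 TPM in vehicle cells (SD, n = 3). Myd88 was next in every group by mean, with 109 ± 26.1, 183 ± 10.1 and 75.0 ± 22.9 TPM in the same groups, although its vehicle range overlapped that of Irak1. The kinases changed places. In vehicle cells Irak1 ranked next with 64.3 ± 8.50 TPM, above Irak2 at 18.9 ± 6.24, Irak4 at 18.7 ± 3.01 and Irak3 at 9.70 ± 2.69 TPM. In LPS cells Irak2 ranked next with 71.4 ± 2.29 TPM, above Irak3 at 31.8 ± 6.36, Irak1 at 26.9 ± 4.78 and Irak4 at 8.53 ± 0.513 TPM. With calycosin pretreatment the order was Irak2 at 76.6 ± 25.8, Irak1 at 47.6 ± 9.13, Irak3 at 21.4 ± 2.38 and Irak4 at 10.7 ± 1.59 TPM.

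Several neighbours in these orders had ranges over libraries that overlapped. In vehicle cells the ranges of Ticam2, Ticam1, Irak2, Irak4, Ly96 and Tirap overlapped from each to the next, from 40.7 TPM down to 9.88 TPM, although Ticam2 was above Ticam1 within each library. In LPS cells the same held for Ly96, Ticam1, Irak3, Irak1, Tirap and Ticam2, from 51.2 down to 15.3 TPM, with Ticam1 above Irak3 and Irak1 above Tirap within each library. Among the pretreated libraries Myd88 overlapped with Irak2 and Irak1 with Ticam1, in both cases with the first gene higher within each library. Ticam1 also overlapped with Ticam2, and Ly96, Irak3 and Tirap formed a further run from 25.3 down to 15.5 TPM, without a fixed order within libraries. Irak4 was the lowest of the 10 in both groups given LPS, below every library of the next gene, and Irak3 was the lowest by mean in vehicle cells. It was below Ly96 within each vehicle library, and in vehicle replicate 3 Irak2 was lower still, at 11.7 TPM against 12.8 TPM for Irak3.

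**Figure D3:**
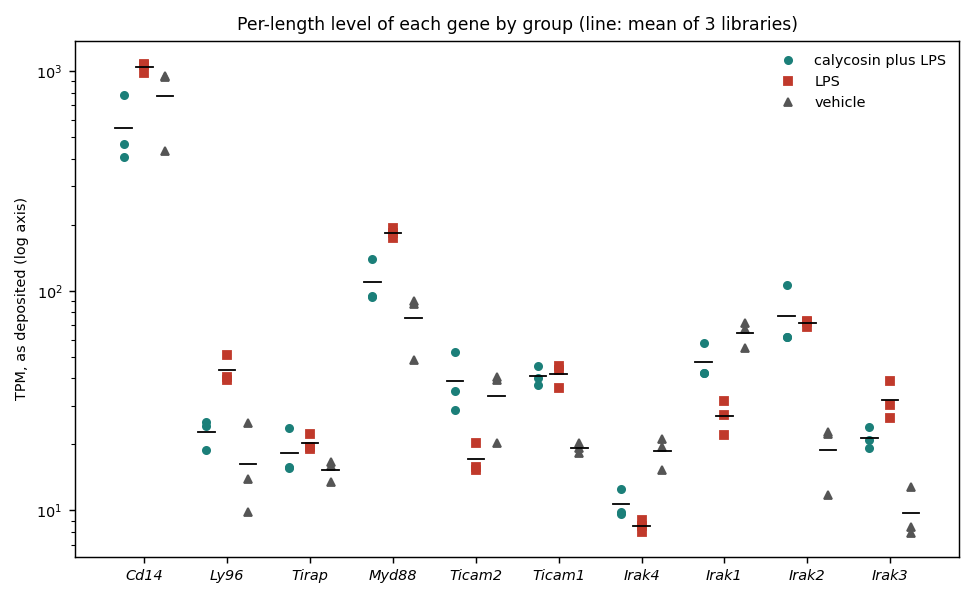
Deposited TPM (log axis) of the 10 genes in calycosin plus LPS, LPS and vehicle libraries, with a line at the mean of 3. Cd14 lies above all others throughout, and Irak1 and Irak2 trade places between vehicle cells (64.3 and 18.9 TPM) and LPS cells (26.9 and 71.4 TPM).

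Ratios of genes within a library do not depend on how libraries are scaled. The ratio of Irak2 to Irak1 in TPM was 1.47, 1.83 and 1.45 in calycosin plus LPS libraries, 2.18, 2.69 and 3.30 in LPS libraries and 0.333, 0.320 and 0.214 in vehicle libraries. The ratio of Irak3 to Irak1 was 0.569, 0.332 and 0.496, then 1.23, 0.968 and 1.38, then 0.118, 0.119 and 0.233 in the same groups. Both ratios were highest with LPS, intermediate with calycosin pretreatment and lowest with vehicle, with no overlap between groups. Between calycosin plus LPS and LPS the mean log2 ratio differed by -0.77 for Irak2 to Irak1 and by -1.38 for Irak3 to Irak1. Each had p = 0.1 in a two-sided exact permutation test, the smallest that 3 against 3 libraries allow, and adjusted p = 0.12 over the 6 ratios.

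Among adaptors, the ratio of Ticam2 to Ticam1 was 0.942, 1.16 and 0.711 in calycosin plus LPS libraries, 0.347, 0.350 and 0.562 in LPS libraries, and 2.22, 1.93 and 1.05 in vehicle libraries. LPS libraries were below both other groups, which overlapped, and calycosin plus LPS over LPS was 1.17 on the log2 scale (exact permutation p = 0.1, adjusted p = 0.12). The ratio of Myd88 to Ticam1, an adaptor transcript from each branch, was 2.53, 3.06 and 2.35 in calycosin plus LPS libraries, 4.25, 4.19 and 4.80 in LPS libraries, and 4.88, 4.28 and 2.54 in vehicle libraries. Every calycosin plus LPS library lay below every LPS library, with a mean log2 difference of -0.74 (exact permutation p = 0.1, adjusted p = 0.12), and vehicle libraries spanned both groups. The ratio of Tirap to Myd88 was 0.166, 0.170 and 0.166 in calycosin plus LPS libraries, 0.116, 0.104 and 0.112 in LPS libraries and 0.178, 0.191 and 0.278 in vehicle libraries, with no overlap between groups. That of Cd14 to Ly96 overlapped between all groups, and vehicle replicate 3 (17.5) lay far below vehicle replicates 1 and 2 (68.1 and 96.3).

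**Figure D4:**
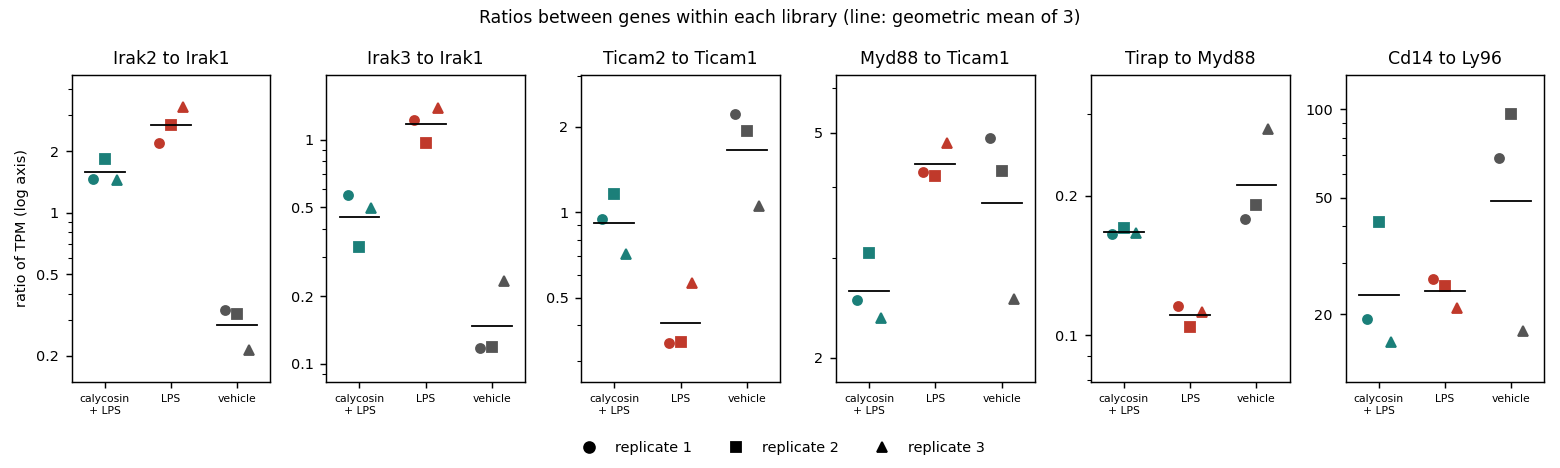
Ratio of TPM between pairs of genes within each library (log axes), with a symbol per replicate and a line at the geometric mean of 3, for calycosin plus LPS, LPS and vehicle cells. Irak2 to Irak1 and Irak3 to Irak1 are highest in LPS cells, at 2.18 to 3.30 and 0.968 to 1.38, and Ticam2 to Ticam1 is lowest there, at 0.347 to 0.562.

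The receptor gene Tlr4 itself varied widely within groups. It had 52.1, 48.9 and 50.4 CPM in calycosin plus LPS cells, 104, 107 and 20.3 CPM in LPS cells, and 9.90, 8.70 and 62.6 CPM in vehicle cells. LPS replicate 3 and vehicle replicate 3 each lay far from the rest of their group, and no comparison of Tlr4 passed (adjusted p = 0.124 for LPS over vehicle, 0.581 for calycosin plus LPS over LPS and 0.355 for calycosin plus LPS over vehicle).

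Of 14 other genes of the receptor complex and its partners, Tlr4 among them, 12 were tested, and 6 rose and 4 fell with LPS, beside 27.3% and 28.9% of all genes, with a median log2 fold change of 0.93. Among those with at least 10 CPM in the higher group, the largest changes were in Scimp, a membrane scaffold that couples TLR4 to Src family kinases, which was 25.3-fold higher at 59.1 ± 6.98 CPM in LPS cells, against 2.33 ± 0.387 CPM in vehicle cells, in Ly86, the MD-1 partner of the TLR4 homologue CD180 (3.96-fold higher), and in Il1rl1, the interleukin 33 receptor (3.72-fold higher). Sarm1, below that level and named after its values were seen, was among the genes called lower, with 0 counts in the LPS libraries, against 0.532 ± 0.145 CPM in vehicle cells. Between calycosin plus LPS and LPS Scimp, Ly86 and Il1rl1 fell and no other of the 12 was called, beside 12.9% lower and 16.1% higher among all genes, with Scimp 5.61-fold lower at 10.5 ± 0.814 CPM (adjusted p = 2.65e-05), Ly86 1.67-fold lower and Il1rl1 1.57-fold lower. Against vehicle the pretreated cells had 6 of the 12 higher and 2 lower, beside 25.4% and 23.6% of all genes, with Scimp 4.51-fold, Ly86 2.37-fold and Il1rl1 2.37-fold higher.

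Of 22 genes that act below the adaptors and IRAKs 20 were tested, and 11 rose and 3 fell with LPS, beside 27.3% and 28.9% of all genes, with a median of 0.91. At the same minimum of 10 CPM, the largest changes were in Ikbke, the inducible kinase of the interferon branch (23.5-fold higher), Peli1, a ubiquitin ligase that modifies IRAKs (12.8-fold), and Irf5, a transcription factor that MyD88 signalling activates (10.1-fold). Between calycosin plus LPS and LPS 1 rose and 4 fell, beside 16.1% and 12.9% of all genes, with a median of -0.07. The largest were Tnip1, a ubiquitin-binding inhibitor of NF-kappaB (2.32-fold lower), Tbk1, the kinase that activates IRF3 (1.71-fold lower), and Ikbkb, the catalytic kinase of the NF-kappaB route (1.62-fold lower). Irf5 was also called lower in that comparison, by 1.48-fold (adjusted p = 0.0163). Ikbke and Peli1 had log2 fold changes of 0.05 and -0.21 there (adjusted p = 0.825 and 0.3). Against vehicle the pretreated cells had 12 of the 20 higher and 1 lower, beside 25.4% and 23.6% of all genes. Of the genes named here, Ikbke was 24.4-fold, Peli1 11.1-fold, Irf5 6.78-fold, Tnip1 3.62-fold and Tbk1 2.81-fold higher, and Ikbkb was the gene that was lower, by 1.41-fold.

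Genes whose log2 CPM followed that of Cd14, Myd88 or Irak3 most closely were looked for among 8711 genes with a mean of at least 10 CPM in their highest group, over the 9 libraries. Nearest to Cd14 were Arhgef2, Flii and Btg1 (Pearson r = 0.995, 0.993 and 0.991). Nearest to Myd88 were Mtm1, Naa25 and Mcoln2 (r = 0.998, 0.997 and 0.997), and nearest to Irak3 were Tmem156, Tgs1 and Gripap1 (r = 0.994, 0.992 and 0.992). These values describe the likeness only, since all libraries share the group structure and the scaling.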

How the data were processed

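Polyadenylated RNA was sequenced from 9 samples. The authors' deposited table of counts holds whole, unscaled numbers for each gene, and the TPM values deposited by the authors are scaled for transcript length and depth, per the file headers. Per the submitters' processing notes, Trimmomatic 0.36, HISAT2 2.0 and StringTie 1.3.3b were used with genome build mm10. No source used here names the counter, strandedness or treatment of multi-mapping reads, so reads in exons shared with an antisense gene (Tirap, Myd88, Irak4, Irak2 and Irak3) or with Tmed7 (Ticam2) cannot be assigned with certainty. Positions are from GENCODE M21 (GRCm38), the same assembly.

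Genes were filtered with filterByExpr, libraries scaled by TMM, and all 9 libraries fitted with a term per group in edgeR 4.0.16 (R 4.3.3), tested on simulated data first. P-values were adjusted over the 14458 genes tested, threshold 0.05. The SE comes from the test statistic. Alternatives used DESeq2 1.42.0, limma 3.58.1, other scalings and filters, and libraries left out. Replicates are separate samples per the labels, whose independence beyond that is not stated. The labels do not say whether a number marks a shared culture, so numbers were not used as pairs. Same-numbered libraries did not deviate together in every pair, which cannot settle that question. The 10 genes, the partner lists and the tests were chosen with earlier results of these data known. Named genes were the 10, Tlr4, the 3 largest called changes at 10 CPM or more in each partner list, and the 3 nearest in pattern to Cd14, Myd88 and Irak3. Depth gives counts of 107 or more for each of the 10 genes in every library.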

Additional observations from a re-analysis of the deposited data

How the results depend on the processing

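Counts of the 10 genes that passed differed from those reported by over 1.5 times under these alternatives. In LPS over vehicle, 0 were lower with only the groups compared, and 0 to 2 when single libraries were left out. In calycosin plus LPS over LPS, 2 were higher with limma on log2(TPM + 1), on log2(TPM + 0.1) and on TPM divided by the TMM factors, and 0 on TPM without a filter, while 0 were lower in the unscaled TPM fits, 5 with only the groups compared, 6 with mitochondrial share as a covariate, and 2 to 5 when single libraries were left out. In calycosin plus LPS over vehicle, 3 were higher in the unscaled TPM fits, and 1 was lower in those, on TPM divided by the TMM factors, without both libraries of unusual mitochondrial share, with mitochondrial share as a covariate, with a GC offset and among the 6 libraries with over 10% mitochondrial counts, where vehicle has 1 library assumed to vary like the others. Leaving out single libraries gave 0 to 1 there. Smaller differences were 5 higher in LPS over vehicle in the unscaled TPM fits, and 3 lower in those with a filter; in calycosin plus LPS over LPS, 4 lower with DESeq2, the GC offset, TPM divided by the TMM factors, without both unusual libraries and among the 6 libraries, and 2 without a filter on counts; and in calycosin plus LPS over vehicle, 7 higher with the mitochondrial covariate, without both unusual libraries or without vehicle replicate 3, and 5 with the GC offset or among the 6 libraries. Signs turned for the Irak2 log2 difference between calycosin plus LPS and LPS (0.053 in each unscaled TPM fit) and, in calycosin plus LPS over vehicle, for Cd14 (0.086 with the mitochondrial covariate, 0.071 with the GC offset, 0.093 among the 6 libraries, -0.17 to 0.056 with single libraries left out) and Irak1 (0.083 with the GC offset). They also turned for the log2 ratio of Myd88 to Ticam1 in LPS over vehicle (-0.053 without both unusual libraries, -0.053 to 0.42 with single libraries left out) and of Cd14 to Ly96 in calycosin plus LPS over LPS (-0.45 to 0.23 with single libraries left out). None of these had passed its test, and the cause was not tested. Of 690 alternative values of the members' fold changes, 604 kept direction and side of the threshold. With the replicate number as a block, Ly96 passed in calycosin plus LPS over LPS (-1.29, adjusted p = 0.0286) and Tirap did not (-0.46, adjusted p = 0.0575). Deviations of same-numbered libraries correlated at -0.173 to 0.364, and those of other pairs at -0.472 to 0.358. With 3 libraries per group, this cannot settle whether a number marks a shared culture. Fits on TPM divided by the TMM factors, on the 6 libraries, and of ratios with libraries left out were chosen after seeing the data.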
